A study of Rattus norvegicus with 26 samples.

Results

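The transcripts described here belong to 40 listed genes of the cell division programme, the proteins with which a cell copies its DNA and then separates the copies. They were taken as the rows of the count table whose gene name was on that list. Of the 40 genes, 38 were among the 32883 genes of the table, and all 38 were among the 17990 genes that passed the expression filter. Ccnb2 and E2f1 were not analysed here.

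RNA sequencing was carried out on 5 mm of rat spinal cord around the lesion, in 26 libraries, to screen for transcripts that respond to hUC-MSCs (human mesenchymal stem cells from the umbilical cord) in subacute spinal cord injury (SCI). The groups were 4 libraries of Intact (intact or sham rats), 3 of sub-SCI (injured rats at the day of transplantation, day 7 after injury), 3, 2 and 4 of injured rats given vehicle (+PBS) and 3, 3 and 4 of injured rats given hUC-MSCs (+MSC), taken at 1, 2 or 4 wpt (weeks after the transplantation). All rats were wild-type female Sprague-Dawley rats of 250 g, and every sample is labelled postnatal day 70 whatever its week. The injury was a clip compression of 60 g for 1 min at thoracic level 10. The labels call the +PBS samples SCI without MSC, and the vehicle is named in the methods. The methods also give cyclosporin A, an immunosuppressant, daily to the rats and name no group that went without it.

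Cells that prepare to divide load the Mcm helicase on DNA, make nucleotides and copy the genome in S phase. Cyclin A2 and cyclin B1 with the kinase Cdk1 then drive mitosis, in which kinetochore and spindle proteins pull the chromosomes apart and the centralspindlin and midzone proteins split the cell. Most of these genes are silent in resting cells and are switched on in waves. E2F factors switch on the S phase genes, and the mitotic genes are switched on through CHR elements and CCAAT boxes in the promoter. The adult spinal cord holds few dividing cells, and after injury microglia, astrocytes, oligodendrocyte precursors, ependymal cells, endothelial cells and fibroblasts are known to divide, while immune cells enter from the blood. In libraries of whole tissue, fewer dividing cells and less RNA per dividing cell cannot be told apart.

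Total counts ranged from 19496602 to 43468509 per library, and the cell division genes took between 0.0244% and 0.196% of them. No pair of libraries of a group agreed within sampling noise. Several libraries stood apart in these genes. Replicate 3 was the highest sub-SCI library in 38 of the 38 genes, replicate 1 was the highest +PBS-2w library in 36, and replicate 4 was the highest Intact library in 29. Replicate 2 was the lowest +PBS-1w library in 35 genes and replicate 1 the lowest +MSC-4w library in 31. The summed level of the neuron markers ranged from 8575 to 10530 CPM (the counts of a gene scaled to the normalized library total) in Intact and that of the astrocyte markers from 8808 to 10460 CPM, so the defining markers of the labelled tissue were present. The samples of a group are replicates by their labels, and the p-values measure the spread between them.

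The promoters were searched for the elements named above and are shown first. After injury 36 of the genes rose, and Ccne1, shown beside some of them, did not. Whether the letters bear on that difference was not tested. RefSeq promoters of GRCr8, from 250 bases before to 50 bases after the annotated start, were found for 30 of the 38 genes. No promoter was found for Aurkb, Ccna2, Ccne2, Foxm1, Mcm4, Racgap1, Rrm2 or Tpx2. In the following sequences, written 5′ to 3′ in the direction of the gene, capitals mark the letters of a CHR element (TTTGAA or TTTAAA), of the CCAAT box or an E2F site (TTCCCGC or TTGGCGC) on either strand. A CCAAT box of the other strand, for example, reads ATTGG here. Ccnb1 and Cdk1 stand for the mitotic cyclin and its kinase, Mki67 for the common marker of proliferation, Mcm3 for the S phase genes, and Ccne1 for the exception.
Ccnb1 (chr2:33655176-33655475, strand minus): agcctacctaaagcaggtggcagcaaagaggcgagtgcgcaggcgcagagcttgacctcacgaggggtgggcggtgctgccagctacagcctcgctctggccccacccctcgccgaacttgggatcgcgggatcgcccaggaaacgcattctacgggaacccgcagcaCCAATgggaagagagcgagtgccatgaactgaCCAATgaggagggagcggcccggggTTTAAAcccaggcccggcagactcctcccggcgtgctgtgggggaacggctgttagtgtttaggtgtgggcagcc
Cdk1 (chr20:19265043-19265342, strand plus): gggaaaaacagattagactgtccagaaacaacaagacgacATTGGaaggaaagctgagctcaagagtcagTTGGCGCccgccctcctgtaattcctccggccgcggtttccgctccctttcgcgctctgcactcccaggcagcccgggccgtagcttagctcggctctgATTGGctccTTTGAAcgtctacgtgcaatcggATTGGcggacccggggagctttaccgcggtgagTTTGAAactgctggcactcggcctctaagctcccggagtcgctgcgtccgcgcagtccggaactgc
Mki67 (chr1:199952544-199952843, strand minus): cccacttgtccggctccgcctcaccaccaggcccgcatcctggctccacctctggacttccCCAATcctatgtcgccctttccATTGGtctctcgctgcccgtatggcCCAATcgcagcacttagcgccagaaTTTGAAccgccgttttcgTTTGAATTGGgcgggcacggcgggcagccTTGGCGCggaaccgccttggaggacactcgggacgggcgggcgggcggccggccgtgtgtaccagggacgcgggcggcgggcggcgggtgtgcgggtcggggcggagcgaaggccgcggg
Mcm3 (chr9:30733697-30733996, strand minus): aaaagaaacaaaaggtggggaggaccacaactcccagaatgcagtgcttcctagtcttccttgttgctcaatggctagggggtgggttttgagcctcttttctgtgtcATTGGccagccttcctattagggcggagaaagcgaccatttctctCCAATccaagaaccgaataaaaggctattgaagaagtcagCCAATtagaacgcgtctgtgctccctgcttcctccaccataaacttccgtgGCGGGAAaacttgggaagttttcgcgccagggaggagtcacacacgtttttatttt
Ccne1 (chr1:99927860-99928159, strand minus): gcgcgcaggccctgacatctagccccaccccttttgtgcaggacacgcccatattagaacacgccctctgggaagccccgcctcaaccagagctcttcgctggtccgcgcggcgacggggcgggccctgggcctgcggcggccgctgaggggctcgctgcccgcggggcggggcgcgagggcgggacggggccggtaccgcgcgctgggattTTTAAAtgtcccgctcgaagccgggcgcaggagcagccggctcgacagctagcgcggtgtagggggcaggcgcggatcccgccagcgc

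The Ccnb1 promoter held CCAAT letters that began 82 and 50 bases before the start and a CHR element 25 bases before it. The Cdk1 promoter held CHR elements at 72 and 16 bases before the start, CCAAT boxes at 210, 81 and 49 bases and E2F letters at 180 bases. Mki67 had 2 CHR elements, 4 CCAAT boxes and 1 E2F site, and its CHR element at 99 bases before the start shared a base with the CCAAT box at 94. The E2F letters can overlap a CCAAT box as well, and each was counted on its own. Mcm3 had 3 CCAAT boxes and an E2F site 6 bases before the start, with no CHR letters in this window. Ccne1, the cyclin of the entry into S phase, had a CHR match 38 bases before the start and neither of the other letters.

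Over the members, the letters divided by role. CHR letters were present in 19 of the 20 promoters of mitotic genes (95%), counting Cdk1, Ccnb1, Mki67 and Top2a among them, and in 1 of the 9 of replication genes (11.1%), compared with 28.3% of the 33469 rat promoters of the same length. E2F letters were present in 15% of the mitotic and 66.7% of the replication promoters, compared with 6.26% of all promoters. CCAAT letters were frequent in both, in 75% and 77.8%, compared with 37.5% of all. CHR and CCAAT letters stood together in 75% of the mitotic and 0.0% of the replication promoters, compared with 11.3% of all. The promoter of Melk held none of the letters. These shares describe letters in a window and carry no test, and a match is not a bound site.

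**Figure D1:**
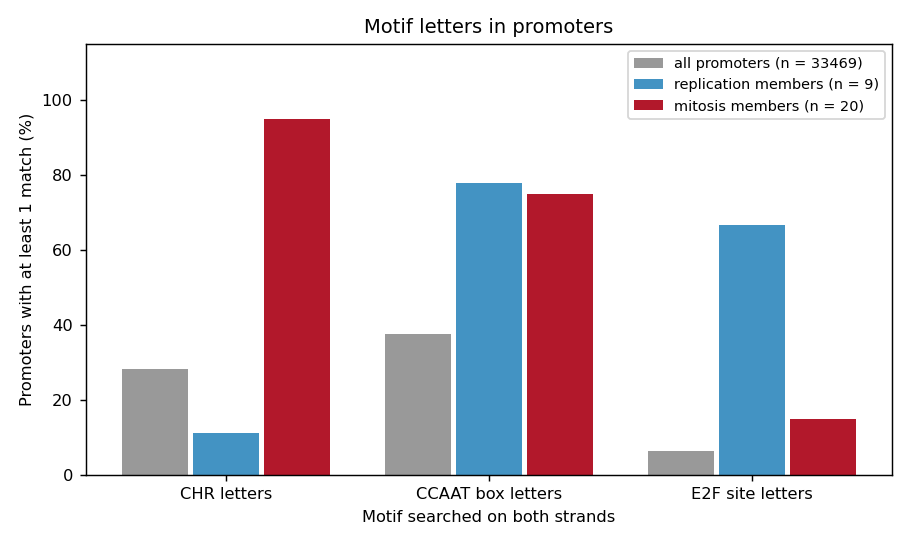
Percentage of promoters (y axis) that hold at least 1 match to the letters of a CHR element, a CCAAT box or an E2F site (x axis) on either strand, for all 33469 rat promoters (grey), 9 replication members (blue) and 20 mitosis members (red). CHR letters were found in 95% of the mitosis promoters and 11.1% of the replication promoters, and E2F letters in 15% and 66.7%.

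Of all groups, sub-SCI had the highest mean in 36 of the 38 genes, the others being Ccne2, highest in Intact, and Aurkb, highest in +MSC-4w. In sub-SCI, 36 of the 38 cell division genes were higher than in Intact and 0 were lower, where a call needs a log2 fold change of more than 1 in size and an adjusted p under 0.01 (quasi-likelihood test of edgeR, adjusted by Benjamini-Hochberg over all genes tested). Of all genes tested, 16.6% were called higher and 17.5% lower in this comparison. The median log2 fold change of the 38 genes was 3.14, where the median of all genes was -0.02, and the summed level rose from between 255.6 and 342.5 CPM in the Intact libraries to between 1174 and 2021 CPM in the sub-SCI libraries. In 36 genes every sub-SCI library lay above every Intact library, a pattern found in 32.9% of all genes. The count of called genes stayed between 33 and 36 when each of the 26 libraries was left out in turn.

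**Figure D2:**
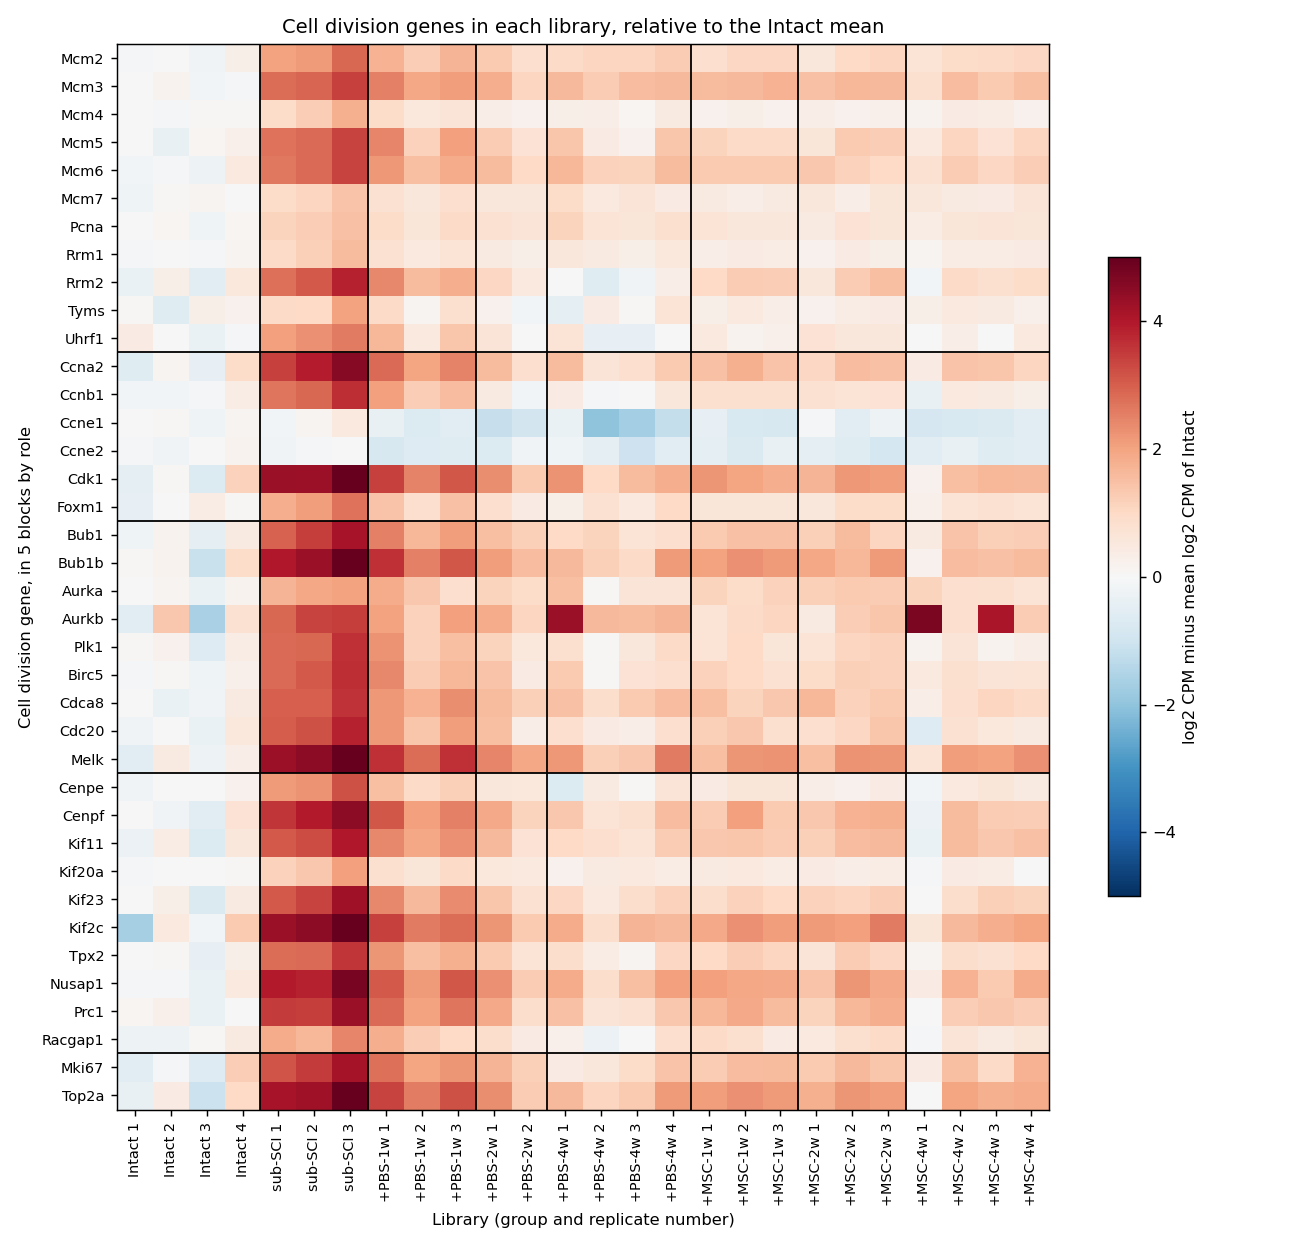
Level of each of the 38 cell division genes (rows, in 5 blocks by role) in each of the 26 libraries (columns, by group and replicate number), as log2 CPM minus the mean of the Intact libraries (color, blue lower and red higher). The sub-SCI columns have the highest group mean in 36 of the 38 rows, the cyclin E rows stay pale or blue, and Aurkb stands out in +PBS-4w replicate 1 and +MSC-4w replicates 1 and 3.

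All 11 genes of DNA replication rose in sub-SCI, with a median log2 fold change of 2.32. Mcm3, a subunit of the helicase that opens DNA at the fork, was at 5.29, 6, 4.81 and 4.94 CPM in the Intact libraries and at 36.9, 39.4 and 57.0 CPM in the sub-SCI libraries. The lowest sub-SCI library was thus several times above the highest Intact library, and Mcm3 had the smallest adjusted p of the members (log2 fold change 3.08 ± 0.20 SE, edgeR adjusted p = 9.71e-11). The helicase subunits Mcm5 and Mcm6 rose by log2 fold changes of 3.01 and 2.97 and Mcm2 by 2.38, while Mcm4 and Mcm7 rose by 1.35 and 1.16. Mcm4 and Mcm7 started from 19.3 ± 0.766 and 20.9 ± 2.18 CPM in Intact (mean ± SD, n = 4). In GRCr8 the span of Mcm7 overlaps 3 microRNA genes (Mir106b, Mir25 and Mir93), and whether they share counted sequence was not examined. The ribonucleotide reductase subunits differed, with Rrm2, the subunit made in S phase, at a log2 fold change of 3.26 and Rrm1 at 1.27.

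Pcna, the sliding clamp of the replication fork, had 47.0, 49.1, 40.1 and 49.3 CPM in Intact and 101, 107 and 127 CPM in sub-SCI. The groups did not overlap, and the log2 fold change was 1.27 ± 0.12 SE (edgeR adjusted p = 2.00e-08). Per kilobase of the length given in the table, Pcna was the most abundant member in both groups, with means of 39.98 RPKM (CPM divided by that length in kilobases) in Intact and 96.5 RPKM in sub-SCI. Uhrf1, which carries DNA methylation through replication, rose by a log2 fold change of 2.32, and Tyms, the thymidylate synthase, by 1.38. Without sub-SCI replicate 3, Tyms and Mcm7 had log2 fold changes of 0.95 and 0.998, just under the minimum for a call.

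Cdk1 and its mitotic cyclins rose more steeply. Cdk1 was at 1.09, 1.6, 0.925 and 3.50 CPM in Intact and at 32.4, 31.3 and 55.4 CPM in sub-SCI. The sub-SCI mean was 22.3 times the Intact mean, with no overlap between the libraries (log2 fold change 4.45 ± 0.43 SE, edgeR adjusted p = 2.00e-08). Ccna2, cyclin A2, went from a mean of 2.06 ± 1.08 CPM (SD, n = 4) to 31.9 ± 12.8 CPM (n = 3), a log2 fold change of 3.94. Ccnb1, cyclin B1, went from 2.73, 2.75, 2.78 and 3.84 CPM to 19.3, 22.2 and 39.8 CPM, a log2 fold change of 3.16. Foxm1, a transcription factor of the mitotic genes, rose by 2.25 on the same scale.

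The E-type cyclins, which act with Cdk2 at the entry into S phase, were the exceptions. Ccne1 was at 7.86, 8.20, 6.71 and 8.63 CPM in Intact and at 7.00, 8.52 and 11.1 CPM in sub-SCI. Ccne2 was at 17.4, 16.2, 18.4 and 20.6 CPM in Intact and at 16.1, 16.7 and 18.1 CPM in sub-SCI. In both genes the groups overlapped, with log2 fold changes of 0.17 ± 0.27 and -0.10 ± 0.16 SE (edgeR adjusted p = 0.594 and 0.631). In Intact, Ccne2 and Ccne1 had 5.99 and 4.02 RPKM, above Cdk1 at 1.26 RPKM and Mki67 at 1.12 RPKM. In sub-SCI the order was turned, with Ccne2 and Ccne1 at 5.61 and 4.53 RPKM and Cdk1 and Mki67 at 28.1 and 12.45 RPKM. Ccne2 overlaps Ints8 in GRCr8, and its counts may include reads of that gene.

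All 9 genes of the mitotic kinases, the spindle checkpoint and the chromosomal passenger complex rose in sub-SCI, with a median log2 fold change of 3.26. Melk, a mitotic kinase, had the largest log2 fold change of the members, 4.88 ± 0.45 SE, and was nearly silent before injury, at 0.218, 0.504, 0.278 and 0.456 CPM in Intact and 8.17, 9.24 and 15.5 CPM in sub-SCI. The checkpoint genes Bub1b and Bub1 rose by log2 fold changes of 4.42 and 3.58. Cdc20, which starts anaphase, rose by 3.38, and Plk1, the polo kinase, by 3.16. Of the passenger complex, Birc5 (survivin) rose by 3.26, Cdca8 (borealin) by 3.22 and its kinase Aurkb by 2.86 ± 0.81 SE. The call of Aurkb was lost with the replicate number as a block (edgeR adjusted p = 0.0177) and without Intact replicate 1, Intact replicate 3, sub-SCI replicate 2 or sub-SCI replicate 3 (edgeR adjusted p = 0.0131, 0.0147, 0.0101 and 0.0121). Aurka, the kinase of the spindle poles, rose by 1.89. Aurkb had the largest SE of the group, and its Intact libraries ranged from 1.30 to 10.6 CPM.

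All 10 genes of the kinetochore, the spindle and cytokinesis rose in sub-SCI, with a median log2 fold change of 3.54. Kif2c, a kinesin that takes microtubules apart at the kinetochore, and Nusap1, which bundles spindle microtubules, rose by 4.44 and 4.28. The kinetochore genes Cenpf and Cenpe rose by 3.98 and 2.60. Kif11, the motor that separates the spindle poles, rose by 3.45, and Tpx2, an activator of Aurora A at the spindle, by 3.11. For cytokinesis, Prc1, which crosslinks the spindle midzone, was at 4.26, 4.67, 3.10 and 3.95 CPM in Intact and 45.8, 44.7 and 79.5 CPM in sub-SCI. The sub-SCI libraries of Prc1 were about an order of magnitude above all the Intact libraries (log2 fold change 3.83). The centralspindlin genes Kif23 and Racgap1 rose by 3.63 and 2.00, and Kif20a, another midzone kinesin, by 1.58. Kif20a had 14.6 ± 0.556 CPM already in Intact and overlaps Cdc23, a subunit of the anaphase-promoting complex, in GRCr8, so its counts may include reads of Cdc23.

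Mki67, the Ki-67 antigen on mitotic chromosomes, was at 6.60, 8.98, 6.15 and 22.7 CPM in Intact and at 85.7, 109.6 and 173.7 CPM in sub-SCI. Intact replicate 4 stood above the other Intact libraries and still below every sub-SCI library (log2 fold change 3.46 ± 0.40 SE, edgeR adjusted p = 1.80e-07). Top2a, the topoisomerase that untangles sister chromosomes, was at 3.38, 5.86, 2.04 and 8.78 CPM and rose to 77.7, 83.9 and 137.8 CPM. Its sub-SCI mean was 19.9 times its Intact mean, and the libraries did not overlap.

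The median log2 fold changes of the mitotic kinases and of the spindle genes, 3.26 and 3.54, lay above the 2.32 of the replication genes, and this difference between the roles was not tested. Other genes that overlap a neighbor in GRCr8 are Rrm2 (Cys1), Uhrf1 (Arrdc5), Foxm1 (Tex52), Aurka (Fam210b), Plk1 (Ern2), Kif11 (Ide), Nusap1 (Ndufaf1), Mcm3 (the pseudogene Cct7-ps4) and Mcm6 (the tRNA gene Trnas-aga41), and Tpx2 and Prc1 overlap an uncharacterized locus, as Kif11 and Nusap1 also do. As the strand setting of the counting is not given in the sources used here, their counts are uncertain to that extent. The overlaps are of whole gene spans, and exons were not compared.

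**Figure D3:**
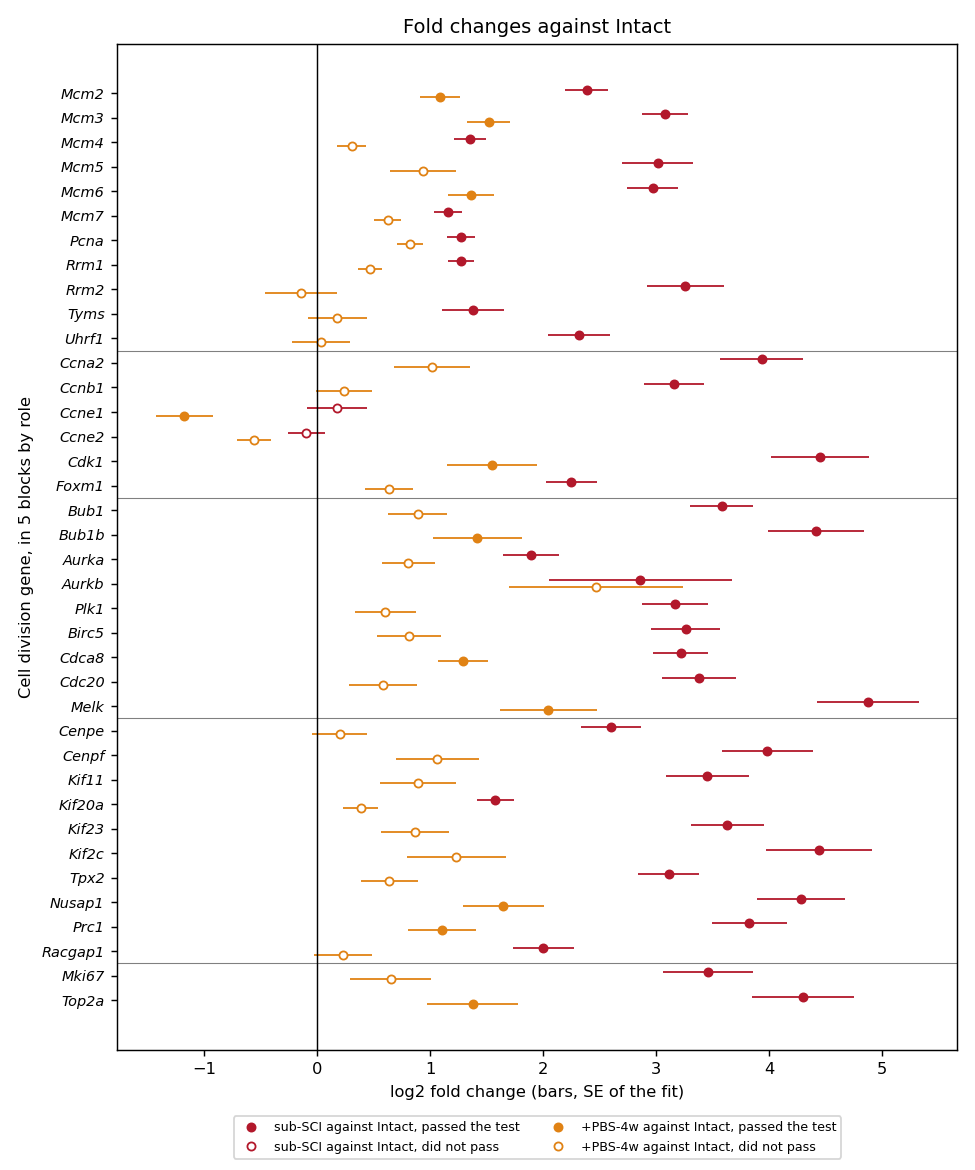
Log2 fold change against Intact (x axis, bars are the SE of the fit) for each of the 38 genes (y axis, in blocks by role) in sub-SCI (red) and +PBS-4w (orange), with filled points for genes that passed the test. In sub-SCI 36 points are filled and lie between 1.16 and 4.88, and in +PBS-4w 11 are filled, of which Ccne1 lies at -1.17.

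Without transplanted cells, the levels declined over the following weeks. Against Intact, 29 genes were still higher in +PBS-1w (13.5% of all genes were called higher), 14 in +PBS-2w (8.84%) and 10 in +PBS-4w (13.3%). Ccne1 was lower in +PBS-4w (10.7% of all genes were called lower), and 0 were lower in +PBS-1w and +PBS-2w (12.5% and 5.66%). The median log2 fold changes of the 38 genes against Intact were 1.86, 1.01 and 0.82 at the 3 times, and those of all genes were -0.01, 0.00 and 0.05. Group means fell at each step from sub-SCI over +PBS-1w and +PBS-2w to +PBS-4w in 26 of the 38 genes and in 1683 of the 17990 genes tested. Every +PBS-4w library lay above every Intact library in 18 genes (22.4% of all genes) and below in 2, Ccne1 and Ccne2 (21.3%). The count at 2 wpt rested on single libraries, as 1 gene was called without +PBS-2w replicate 1, 8 without Intact replicate 1 or replicate 3 and 9 without Intact replicate 2. At 4 wpt 7 genes were called in all without Intact replicate 3.

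Mki67 was at 64.1, 37.7 and 44.1 CPM in +PBS-1w, at 31.2 and 22.0 CPM in +PBS-2w and at 12.6, 14.1, 18.1 and 25.5 CPM in +PBS-4w. The +PBS-4w libraries reached into the range of Intact, whose highest library had 22.7 CPM, and the log2 fold change against Intact was 0.65 ± 0.36 SE (edgeR adjusted p = 0.133). In +PBS-4w the rise of the Mki67 mean over Intact was 5.78% of that in sub-SCI, and that of Cdk1 was 9.26%. Rrm2 was at 2.91, 1.87, 2.51 and 3.67 CPM in +PBS-4w, of which replicate 2 lay below the Intact libraries and the other 3 within their range of 1.99 to 4.18 CPM.

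The 10 genes that were still higher at 4 wpt were the helicase genes Mcm2, Mcm3 and Mcm6, the kinase Cdk1, Bub1b, Cdca8 and Melk of the mitotic kinases and the checkpoint, the spindle genes Nusap1 and Prc1, and Top2a. Mcm3 was at 16.3, 12.7, 15.2 and 16.1 CPM in +PBS-4w, each above the highest Intact library (log2 fold change 1.52 ± 0.19 SE, edgeR adjusted p = 1.11e-06). Melk had the largest log2 fold change among the 10, 2.04 ± 0.43 SE. Pcna, at 101, 74.6, 70.6 and 81.0 CPM, also lay above all the Intact libraries and passed the adjusted p (6.23e-06, edgeR) with a log2 fold change of 0.82, under the minimum for a call. For Pcna 54.1% of the sub-SCI rise remained in the +PBS-4w mean.

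Ccne1, which had not been called higher in sub-SCI, fell with the other genes afterwards but to levels below Intact. It was at 5.97, 4.89 and 5.28 CPM in +PBS-1w, at 3.49 and 4.12 CPM in +PBS-2w and at 6.26, 1.91, 2.33 and 3.40 CPM in +PBS-4w, all below the lowest Intact library at 6.71 CPM. Its log2 fold change against Intact was -1.04 ± 0.32 SE at 2 wpt (edgeR adjusted p = 0.0149) and -1.17 ± 0.26 SE at 4 wpt (edgeR adjusted p = 0.000634). Ccne2 was at 15.5, 12.8, 8.86 and 12.1 CPM in +PBS-4w, also below every Intact library, with a log2 fold change of -0.56 (edgeR adjusted p = 0.00383) that did not reach the minimum for a call.

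Aurkb departed from the other members at 4 wpt. It was at 82.9, 12.7, 12.6 and 13.6 CPM in +PBS-4w and at 107.9, 7.43, 69.95 and 9.94 CPM in +MSC-4w. Thus 3 of the 8 libraries at 4 wpt were above the highest sub-SCI library at 46.1 CPM, while the other 5 were at or below 13.6 CPM. In the same 3 libraries Cdca8, of the same complex, was at 7.12 CPM in +PBS-4w replicate 1 and at 3.26 and 5.44 CPM in +MSC-4w replicates 1 and 3, and in no group at 4 wpt did it exceed 7.48 CPM. What sets these libraries apart in Aurkb was not tested.

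**Figure D4:**
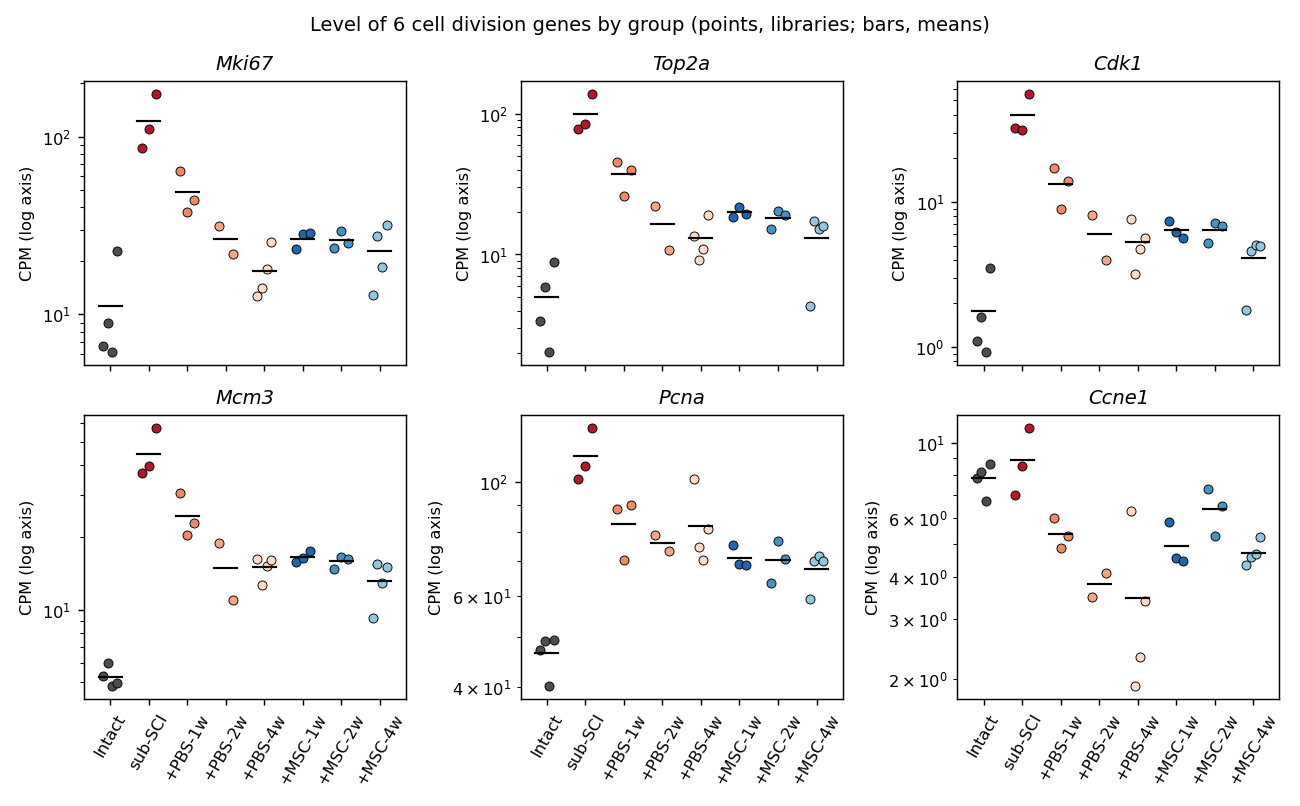
CPM on a log axis (y axis) of Mki67, Top2a, Cdk1, Mcm3, Pcna and Ccne1 in the 8 groups (x axis), with a point for each library and a bar for the group mean. Sub-SCI has the highest mean in each panel and the later groups lie lower, with +MSC-4w replicate 1 lowest in its group. In 5 of the panels every sub-SCI library lies above every Intact library. Ccne1 overlaps, at 6.71 to 8.63 CPM in Intact and 7.00 to 11.1 CPM in sub-SCI, and is at 1.91 to 6.26 CPM in +PBS-4w.

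Set against sub-SCI itself, all 38 genes had a lower estimate in +PBS-1w, with a median log2 fold change of -1.28 where that of all genes was 0.01. Of the 38, 1 gene was called lower, Ccnb1 (log2 fold change -1.50 ± 0.28 SE, edgeR adjusted p = 0.00900), where 0.106% of all genes were called lower. With the replicate number as a block, Ccnb1 lost the call (edgeR adjusted p = 0.0113) and Cdca8 gained it (edgeR adjusted p = 0.00954). At an adjusted p under 0.05 with no minimum fold, 23 genes were lower, and 1.51% of all genes were. In 35 genes every +PBS-1w library lay below every sub-SCI library (13.4% of all genes), the others being Tyms, Aurka and Racgap1. The count of 1 depended on single libraries, as 7 genes were called without +PBS-4w replicate 1, 3 without sub-SCI replicate 1, 2 without +MSC-4w replicate 1, and 0 in 21 of the 26 fits that left out a library. The +PBS-4w and +MSC libraries enter here only through the shared spread. By 4 wpt 33 genes were called lower in +PBS than in sub-SCI and 0 higher (3.09% of all genes were called lower and 4.28% higher), with a median log2 fold change of -2.43. Among the 5 genes not called lower, Mcm7, Pcna, Rrm1 and Ccne2 had log2 fold changes between -0.80 and -0.45, and Aurkb had -0.39 ± 0.77 SE.

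The transplantation was examined by comparing +MSC with +PBS at the same week. At 1 wpt 0 of the 38 genes were called (0.00% of all genes were called higher and 0.0111% lower), and the smallest adjusted p was 0.0991, for Kif23 (edgeR). The estimates lay on the same side for nearly all the members, with 37 of 38 below 0 and a median log2 fold change of -0.81, where that of all genes was -0.00. At an unadjusted p under 0.05, 30 genes were lower and 0 higher. The share of all genes at that limit is not given here, for this or the later counts by unadjusted p. The genes rise and fall together within a library, so the 30 are not independent of each other. DESeq2 called 0 genes on all libraries and 3, Cdk1, Melk and Kif23, on the 6 libraries of this comparison. Of all genes, DESeq2 called 68 on all libraries and 346 on the 6 libraries. In 32 genes every +MSC-1w library was below every +PBS-1w library, and 11.6% of all genes showed this.

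Kif23 was at 10.5, 6.23 and 10.4 CPM in +PBS-1w and at 3.61, 4.45 and 3.94 CPM in +MSC-1w (log2 fold change -1.18 ± 0.33 SE). Melk was at 5.17, 2.87 and 5.16 CPM and at 1.11, 1.9 and 1.93 CPM, with the largest difference of the members (log2 fold change -1.42 ± 0.42 SE, edgeR adjusted p = 0.115). Cdk1 was at 17.1, 8.88 and 13.9 CPM and at 7.33, 6.23 and 5.67 CPM (log2 fold change -1.05 ± 0.42 SE, edgeR adjusted p = 0.199). In each of the 3 genes the groups were separate, and +PBS-1w replicate 2 was the library closest to +MSC-1w. Mki67, at 64.1, 37.7 and 44.1 CPM against 23.3, 28.2 and 28.5 CPM, was separate as well (log2 fold change -0.87 ± 0.40 SE, edgeR adjusted p = 0.267).

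By role, the median log2 fold changes at 1 wpt were -0.57 for replication, -0.77 for the cyclins, Cdk1 and Foxm1, -0.88 for the mitotic kinases and checkpoint, -0.86 for the kinetochore, spindle and cytokinesis genes and -0.88 for Mki67 and Top2a. The libraries of 6 genes overlapped. These were Pcna, Tyms, Ccne1, Ccne2, Aurka and Cenpf. Ccne2 was the gene with an estimate above 0 (log2 fold change 0.18 ± 0.17 SE). The +MSC-1w libraries lay close together, with summed levels of 480.8 to 495.2 CPM and Ccnb1 at 5.23, 5.21 and 5.24 CPM, while the +PBS-1w libraries spread from 575.7 to 873.3 CPM. The mean log2 CPM of the 38 genes differed by -0.68 between +MSC-1w and +PBS-1w, and this difference ranged from -0.87 to -0.52 with each library of the 2 groups left out in turn. Without the 8 libraries numbered 1, a choice made after the data were seen, the median log2 fold change was -0.53, with 13 genes at an unadjusted p under 0.05 and 0 called.

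**Figure D5:**
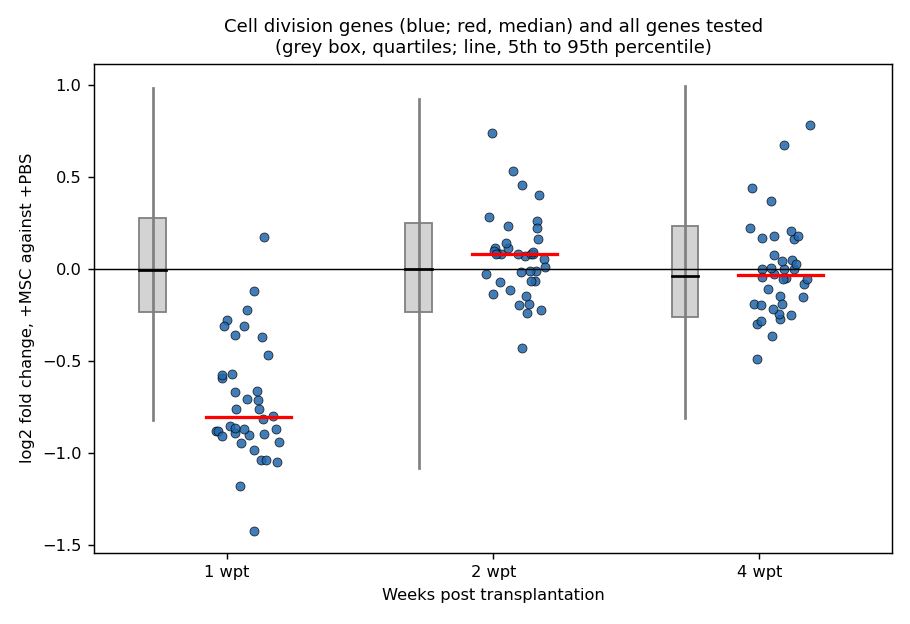
Log2 fold change of +MSC against +PBS (y axis) at 1, 2 and 4 wpt (x axis) for the 38 cell division genes (blue points, red bar for their median) beside all 17990 genes tested (grey box for the quartiles, grey line from the 5th to the 95th percentile). The points center on -0.81 at 1 wpt, 0.08 at 2 wpt and -0.03 at 4 wpt, and no gene passed the test at any of the 3 times.

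At 2 wpt 0 of the 38 genes were called (0.00% of all genes), 1 had an unadjusted p under 0.05 and DESeq2 called 0. The median log2 fold change was 0.08, with 23 genes above 0 and 15 below. Without the 8 libraries numbered 1, which leaves 1 library of +PBS-2w that is assumed to vary like the other groups, the median was 0.50, with 7 genes at an unadjusted p under 0.05 and 0 called. Ccne1 had the largest estimate, with 3.49 and 4.12 CPM in +PBS-2w and 7.31, 5.29 and 6.47 CPM in +MSC-2w (log2 fold change 0.74 ± 0.33 SE, edgeR adjusted p = 0.378). Tyms, Ccnb1, Ccne1 and Aurka were higher in every +MSC-2w library and Cenpe and Kif20a lower, whereas 18.6% and 18.4% of all genes separated in those directions. With 2 libraries of +PBS, a group that spread from 422.4 to 547.5 CPM in the summed level, small differences were not detectable.

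At 4 wpt 0 of the 38 genes were called (0.495% of all genes were called higher and 0.00% lower), 3 had an unadjusted p under 0.05 and DESeq2 called 0. The median log2 fold change was -0.03, and 0.20 without the libraries numbered 1. The libraries of the groups were separate in 0 genes (6.08% of all genes were separate and higher, 4.47% separate and lower). The smallest adjusted p was that of Rrm2, at 2.91, 1.87, 2.51 and 3.67 CPM in +PBS-4w and 2.59, 5.62, 5.12 and 5.51 CPM in +MSC-4w (log2 fold change 0.79 ± 0.31 SE, edgeR adjusted p = 0.139). In the mean of the 3 weekly differences 0 genes were called (1.61% of all genes were called higher and 0.956% lower), 9 had an unadjusted p under 0.05 and DESeq2 called 0. At an adjusted p under 0.05 Mcm2 and Cdca8 were lower in that mean, by log2 fold changes of -0.33 and -0.42 (edgeR adjusted p = 0.0451 and 0.0358), and 10.9% of all genes were lower by that rule. Over the 38 genes that mean had a median of -0.23 on the log2 scale. The median was 0.05 without the libraries numbered 1, a fit that holds 1 library of +PBS-2w.

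The change of the transplantation effect between weeks was tested as a difference of differences. Between 4 and 1 wpt 36 of the 38 estimates were above 0, with a median of 0.77 on the log2 scale, 13 had an unadjusted p under 0.05 and 0 were called by edgeR or DESeq2 (0.00% of all genes), the smallest adjusted p being 0.999. Between 2 and 1 wpt, a comparison added after the data were seen, 37 estimates were above 0 with a median of 0.85, 9 had an unadjusted p under 0.05 and 0 were called by edgeR. These comparisons share the libraries of 1 wpt. A difference in the transplantation effect between weeks was therefore not established for any of the 38 genes.

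Each treated group was also compared with Intact. In +MSC-1w 16 of the 38 genes were higher and 0 lower (7.87% of all genes were called higher and 2.63% lower), beside the 29 of +PBS-1w, and these counts share the Intact libraries. In +MSC-2w 14 genes were higher and 0 lower (5.60% and 0.461% of all genes). In +MSC-4w 6 were higher, namely Mcm3, Mcm6, Bub1, Aurkb, Melk and Nusap1, and 0 lower (7.25% and 1.53% of all genes). Of these, Aurkb was at 107.9, 7.43, 69.95 and 9.94 CPM in +MSC-4w, where its Intact libraries ranged from 1.30 to 10.6 CPM. The median log2 fold changes of the 38 genes in +MSC-1w, +MSC-2w and +MSC-4w were 1.02, 1.09 and 0.81. At an adjusted p under 0.05 with no minimum fold, the counts in either direction were 30, 28 and 27 for +MSC-1w, +MSC-2w and +MSC-4w (33.2%, 19.1% and 31.2% of all genes) and 28 for each of +PBS-2w and +PBS-4w (36.7% and 52.6%). The counts under the call rule moved with single libraries. In +MSC-1w 10 genes were called without Intact replicate 3. In +MSC-2w 7 were called without Intact replicate 3, 9 without Intact replicate 1 and 8 without +MSC-2w replicate 2 or replicate 3. In +MSC-4w 2 were called without Intact replicate 3, 3 without Intact replicate 1 or +MSC-4w replicate 2, and 12 without Intact replicate 4 or +MSC-4w replicate 1. Against sub-SCI, a comparison added after the data were seen, 30 genes were lower in +MSC-1w and 0 higher (3.52% of all genes were called lower and 6.46% higher), and every +MSC-1w library was below every sub-SCI library in 38 genes (24.1% of all genes).

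Other genes of the cell cycle, from lists of known function, were read in the same comparisons. Of 30 further mitosis genes 28 were higher in sub-SCI than in Intact and 1 lower, where 16.6% of all genes were called higher and 17.5% lower. Their median log2 fold change was 2.99. Pbk, a mitotic kinase, Ube2c, which marks cyclins for degradation, and Cenpa, the histone of the centromere, led with log2 fold changes of 4.98, 4.44 and 4.33, and Anln, an actin-binding protein that is also present in myelin, was lower at -1.27. Of 19 tested genes of replication licensing and the fork 10 were higher, led by Mcm10, Dtl and Tk1 with 3.71, 3.43 and 3.17, and the median was 1.07. Hells, on the same list, was under the expression filter. In +PBS-4w 8 of the 30 mitosis genes and 2 of the 19 replication genes were higher than in Intact, where 13.3% of all genes were, and 1 mitosis gene was lower, where 10.7% of all genes were. The share of the replication genes was thus no larger than that of all genes.

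The D-type cyclins and the kinases Cdk2, Cdk4 and Cdk6, which act before the E-type cyclins or with them, were higher for 5 of 6 genes in sub-SCI and for 4 of 6 in +PBS-4w. Cdk6, Ccnd1 and Cdk2 had log2 fold changes of 2.26, 2.1 and 1.9 in sub-SCI. Of 14 tested inhibitors of the cell cycle, 10 were higher in sub-SCI, 10 in +PBS-1w and 7 in +PBS-4w, with Cdkn2a, Cdkn2c and Rbl1 at 3.70, 2.99 and 2.30 in sub-SCI. Of 12 E2F factors and partners of the DREAM complex, 5 were higher in sub-SCI and 0 in +PBS-4w, led by E2f8, Mybl2 and E2f7 at 3.73, 3.64 and 2.47. Against Intact, 16.6% of all genes were called higher in sub-SCI, 13.5% in +PBS-1w and 13.3% in +PBS-4w. Between +MSC-1w and +PBS-1w 0 genes of these 5 lists were called by edgeR, with medians of -0.66 for mitosis, -0.15 for replication, -0.46 for the D-type cyclins, -0.36 for the inhibitors and -0.14 for the E2F and DREAM genes. Cdkn2d was not analysed here.

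Markers of the cell types in the segment moved in the same comparisons, and their part in the results was not tested. In sub-SCI against Intact, 16.6% of all genes were called higher and 17.5% lower. Of 12 microglia and macrophage markers 10 were higher in sub-SCI than in Intact, and their summed level was 379.5 to 628.1 CPM in Intact, 4085 to 5782 CPM in sub-SCI, 4473 to 7203 CPM in +PBS-1w and 3163 to 3642 CPM in +MSC-1w. The range of this sum in +PBS-1w overlapped that in sub-SCI. Of 7 tested T and B lymphocyte markers 5 were higher in sub-SCI, and the sum was 1.2 to 6.96 CPM in Intact, 176.4 to 196.8 CPM in sub-SCI, 64.4 to 164.7 CPM in +PBS-1w and 20.3 to 42.1 CPM in +MSC-1w. Of 8 fibroblast and pericyte markers 6 were higher in sub-SCI, and the sum was 182.1 to 1020 CPM in Intact, 6588 to 13510 CPM in sub-SCI, 3291 to 7558 CPM in +PBS-1w and 1678 to 2595 CPM in +MSC-1w. Of the 10 marker lists, none had a gene called between +MSC-1w and +PBS-1w (edgeR). In the summed level the +MSC-1w libraries lay below the +PBS-1w libraries for the 3 lists above. For the lymphocyte markers the sum was mostly Cd8a. Its highest count in a library was 6138, while those of the T cell genes Cd3e, Cd3d and Cd3g were 157, 91 and 165. The lymphocyte sum is therefore not read as an amount of T cells. The mean log2 CPM of the lymphocyte markers overlapped, at 0.87, -0.56 and 1.59 in +MSC-1w and 0.52, 1.65 and 1.42 in +PBS-1w.

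Of the other lists, 4 of 6 tested endothelial markers were higher in sub-SCI, with sums of 198.6 to 243.9 CPM in Intact and 361.2 to 513.1 CPM in sub-SCI. In +PBS-1w and +MSC-1w the endothelial sums were 318.5 to 464.4 and 261.7 to 279.5 CPM. Neutrophil markers were higher for 2 of 7, with sums of 13.7 to 162.9 CPM in Intact and 224.2 to 269.0 CPM in sub-SCI. Neurons do not divide, and 9 of 10 neuron markers were lower in sub-SCI, with a sum of 411.4 to 1901 CPM, and in +PBS-1w and +MSC-1w the sums were 1021 to 2416 and 3178 to 6669 CPM. Astrocyte markers were lower for 5 of 8, with a sum of 5246 to 10390 CPM in sub-SCI, and ependymal markers were lower for 2 of 6, with 24.5 to 34.8 CPM in Intact and 8.31 to 19.0 CPM in sub-SCI. Oligodendrocyte precursor markers had 1 of 8 higher and 1 lower, with 842.5 to 864.7 CPM in Intact and 805.2 to 1013 CPM in sub-SCI. Of the Schwann cell markers 1 of 7 was higher, and the sum already ranged from 24.7 to 1237 CPM in Intact. As 16.6% of all genes were called higher and 17.5% lower, the counts of Schwann cell and oligodendrocyte precursor markers were near those shares. Cldn5 was listed at 0 in all 26 libraries and was not tested, as were Sntn and Ltf, which had few counts, and Pecam1, Foxj1 and Cd79a were not analysed here.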

How the data were processed

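RNA was sequenced from poly(A) libraries of rat spinal cord, and the table holds raw counts per gene, which the authors deposited without normalization. According to the submitters' processing notes, reads were trimmed with Trim Galore 0.5.0, aligned with HISAT2 2.1.0, handled with SAMtools 1.9 and counted with featureCounts 1.6.4. Reads that mapped to the human genome (GRCh38) were removed before alignment to the rat genome (Rnor6), so that residual human transcripts do not appear, and rat reads that also map to human, as conserved coding sequence can, may be undercounted. The annotation release and the strand setting are not given in the sources used here. The gene lengths behind RPKM are those of the deposited table.

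The counts were tested with edgeR 4.0.16 (R 4.3.3, limma 3.58.1) in 1 quasi-likelihood fit of 8 groups and 26 libraries, after filterByExpr (17990 genes) and TMM normalization. A gene was called at an absolute log2 fold change above 1 and a Benjamini-Hochberg adjusted p under 0.01. CPM used TMM-scaled totals, and means of log2 CPM a prior count of 2. Total counts were 19496602 to 43468509, and genes with the lowest CPM rest on the fewest reads and have the largest SE. Alternatives were DESeq2 1.42.0, fits on the groups compared, median-of-ratios scaling, other filters, a looser call rule, a block for the replicate number and leaving out libraries. The procedure was tested on simulated data.

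The members and the gene lists were chosen with earlier results of these data known. The text names all members, up to 3 called genes of each other cell cycle list by their log2 fold change in sub-SCI, and, outside that rule and after their values were seen, Anln and the genes in the last part. Groups followed the labels, which give 2 libraries of +PBS-2w and 3 of +MSC-2w, where the methods give 2 repeats for +MSC-2w. Replicates with the same number deviated together between sub-SCI and +PBS-1w (correlations of 0.191 to 0.411 in 3 of 3 pairs), and not in every pair of +MSC and +PBS at any week. Nothing in the labels says that a number marks a shared day or litter. Files of single libraries equalled the columns of the joint table in 26 of 26 cases. The proteins of these genes were not used here.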

Additional observations from a re-analysis of the deposited data

Results flagged for a closer look

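In +MSC-4w, replicate 1 was the lowest library and far from the others in 6 genes and in their mean. Pcna was at 59.0 CPM where the other 3 libraries had 70.1 to 71.7 CPM, Rrm2 at 2.59 CPM against 5.12 to 5.62, and Cdk1 at 1.79 CPM against 4.59 to 5.01. Bub1b was at 1.03 CPM against 2.61 to 2.80, Prc1 at 4.02 CPM against 9.38 to 10.2, and Top2a at 4.34 CPM against 15.1 to 17.2. The mean log2 CPM of the 38 genes was 2.47 in this library and 3.09 to 3.12 in the others. Aurkb, a member of the same list, had its highest level of all 26 libraries in this library.

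Intact replicate 4 was the highest of its group and far from the others in Mki67, at 22.7 CPM against 6.15 to 8.98, and in Ccnb1, at 3.84 CPM against 2.73 to 2.78. Aurkb was at 82.9 CPM in +PBS-4w replicate 1 and at 12.6 to 13.6 CPM in the other libraries of that group. Chance alone flags about 1 in 20 tests, and 117 tests gave 10 flags of this kind. Each gene, and the mean of the genes, was tested in each group of 4 libraries. Groups with fewer libraries were not examined in this way. The genes rise and fall together within a library, so the flags are not independent of each other.

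Ccnb1 was higher in every +MSC library than in every +PBS library at 2 wpt (log2 fold change 0.54) and lower in every one at 1 wpt (log2 fold change -0.87). The difference between these effects was tested after the data were seen and was 1.41 ± 0.42 SE on the log2 scale (edgeR adjusted p = 1 over all genes tested).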

How the results depend on the processing

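The counts of genes higher in sub-SCI and +PBS-1w than in Intact, and lower in +PBS-4w than in sub-SCI, stayed within 1.5 times under every alternative run. DESeq2 on all libraries called 11 genes in place of 6 between +MSC-4w and Intact, and 1978 of all genes in place of 1580. Between +PBS-1w and sub-SCI it called 17 in place of 1, and 271 of all genes in place of 28. On the groups compared alone, DESeq2 called 18 between +PBS-1w and sub-SCI (244 of all genes). It called 3 between +MSC-1w and +PBS-1w (346 of all genes). On the groups compared alone, edgeR called 7 in place of 11 between +PBS-4w and Intact, and 3360 of all genes in place of 4318. Between +PBS-1w and sub-SCI it called 0 (0 of all genes). Without a filter the count between +PBS-1w and sub-SCI was also 0 (17 of all genes). At an adjusted p under 0.05 with no minimum fold, the counts against Intact were 28 for +PBS-2w, 28 for +PBS-4w, 30 for +MSC-1w, 28 for +MSC-2w and 27 for +MSC-4w, that for +PBS-1w against sub-SCI was 23, and that in the mean of the weekly differences 2. A term for the libraries numbered 1, added after the data were seen, gave 2 for +PBS-1w against sub-SCI, and leaving those 8 libraries out gave 13 there, 1 for +PBS-2w and 7 for +PBS-4w against Intact, where the lone +PBS-2w library is assumed to vary like the other groups. The replicate block gave 35, 29, 17 and 11 genes for sub-SCI and for +PBS-1w, +PBS-2w and +PBS-4w against Intact, 1 for +PBS-1w against sub-SCI, and 0 for +MSC against +PBS, and moved no count by over 1.5 times. With each library left out in turn, the counts ranged over 33 to 36 for sub-SCI, 28 to 29 for +PBS-1w, 1 to 17 for +PBS-2w, 7 to 15 for +PBS-4w, 10 to 20 for +MSC-1w, 7 to 18 for +MSC-2w and 2 to 12 for +MSC-4w against Intact, 0 to 7 for +PBS-1w and 27 to 33 for +PBS-4w against sub-SCI, and 0 to 0 for +MSC against +PBS at every week. The mean log2 CPM difference ranged from -0.87 to -0.52 at 1 wpt, -0.17 to 0.35 at 2 wpt and -0.12 to 0.14 at 4 wpt. Of the single-gene values under the alternatives, 18584 kept direction and side of the threshold, 239 lost the call, 329 gained it and 0 reversed a call. The cause of these changes was not tested. With 2 to 4 libraries a group and the spread of +PBS-1w, a difference of the size seen at 1 wpt did not pass the adjusted p.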

Other observations

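In the mean of the 3 weekly differences between +MSC and +PBS, genes outside the cell division list were called in both directions, and they are named after their values were seen. By the same rule 1.61% of all genes were called higher and 0.956% lower. The genes named are single members of their lists. The other members are not counted here, so no change of a cell type is read from them. Gas1, a growth arrest gene that fibroblasts express, Cdh5, the cadherin of endothelial junctions, and Cd8a, from the lymphocyte list, were lower. Their log2 fold changes were -1.06, -1.25 and -1.13 (edgeR adjusted p = 0.00607, 0.00327 and 0.00208). The mean log2 CPM of the lymphocyte markers at 1, 2 and 4 wpt was 0.634, 0.423 and 0.104 in +MSC and 1.196, 0.043 and 0.408 in +PBS. Rbfox3, the neuronal nuclear antigen, Slc17a6, a glutamate transporter of excitatory neurons, and the neurofilament genes Nefl and Nefm were higher, with log2 fold changes of 1.28, 1.01, 1.27 and 1.27 (edgeR adjusted p = 0.000782, 0.00776, 0.00585 and 0.00947). In the same mean the cell division genes had a median of -0.23 with 35 of 38 estimates below 0, and 0 were called. Without the 8 libraries numbered 1, a choice made after the data were seen, that median was 0.05. That fit holds 1 library of +PBS-2w, and the reason for the difference was not tested.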
